A study of Mus musculus with 6 samples.

Results

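The ephrin, semaphorin, netrin and SLIT guidance genes are the ligands and receptors that steer growing axons, migrating cells and new vessels. They were taken from the uterine gene table by symbol, as the genes named *Epha*, *Ephb*, *Efna*, *Efnb*, *Sema*, *Plxn*, *Nrp*, *Ntn*, *Unc5*, *Dcc*, *Slit* and *Robo* with their family number or letter, and 69 of the 23420 genes of the table met this rule. Uterine RNA was sequenced from C57BL/6J females 8 weeks old, mated with vasectomized males and taken on day 4.5 of pseudopregnancy, a hormonal state that runs like early pregnancy without embryos. Control females carried the floxed allele on both chromosomes (*Foxo1f/f*), and the conditional knockout carried the same floxed alleles with Cre recombinase at the *Pgr* locus (*PgrCre/+ Foxo1f/f*, called *Foxo1d/d*). Each genotype had 3 libraries, each from a pool of 2 mice. *PgrCre* acts in cells that make PGR. The study places its action in every compartment of the uterus, and in the ovary, the pituitary and the mammary gland. Cells that never made PGR keep the gene, and the controls lacked Cre.

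Eph receptors are receptor tyrosine kinases that bind ephrins held in the membrane of the next cell, and signals run into both cells. Semaphorins act through plexins, with neuropilins as coreceptors for the secreted class. Netrins act through DCC and the UNC5 receptors, and SLITs act through ROBO receptors. In the uterus these families are known from blood vessels, from the contact between epithelium and stroma, and from the attachment of the embryo.

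The values are the authors' mean raw counts per gene over the 3 libraries of a genotype. Multiplied by the 3 libraries, the mean counts of all genes summed to 78375043 in *Foxo1f/f* against 81773890 in *Foxo1d/d*. With 1 mean per genotype and no counts of single pools, the spread between pools could not be computed from the counts, so no test was made, and every interval below is a 95% exact binomial (Clopper-Pearson) interval of the ratio that covers counting error only. The log2 ratio compares *Foxo1d/d* with *Foxo1f/f* with a pseudocount of 1 added to both means, which were then scaled by the summed mean counts of the genotypes. In whole uterus, fewer cells of a type and less RNA per cell cannot be told apart.

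*Foxo1* averaged 3941 counts in *Foxo1f/f* against 1456 in *Foxo1d/d* (log2 ratio -1.50, interval -1.55 to -1.45). The deleted gene was therefore lower in the libraries labelled as its knockout. *Pgr*, which encodes the progesterone receptor and whose locus carries the Cre, averaged 5469 and 6551 counts (log2 ratio 0.20, interval 0.17 to 0.23). The labelled tissue was checked with *Pgr*, *Esr1*, *Hoxa10*, *Hoxa11*, *Wnt7a* and *Foxa2*, and all 6 had mean counts above the minimum of 10. *Hoxa10*, a homeobox gene of uterine stroma, had the most counts of the 6, with 14268 in *Foxo1f/f* against 13780 in *Foxo1d/d*.

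Of the 69 guidance genes, 62 had a mean count over both genotypes of at least 10 and entered the comparison, as did 15696 genes in all. Among the 62, *Epha8* and *Unc5d* were over 1.5-fold higher in *Foxo1d/d*, and *Epha1*, *Efna3* and *Robo1* were over 1.5-fold lower. That is 2 genes, or 3.23%, called higher where 5.43% of all tested genes were, and 3 genes, or 4.84%, called lower where 3.51% were. Both shares of the guidance genes lay near those of all genes. The counting interval lay wholly above 0 for 21 guidance genes, 33.9% against 36.4% of all tested genes. It lay wholly below 0 for 27, 43.5% against 27.1% of all tested genes. Such intervals are narrower where counts are higher, in both directions, and the median mean count was 1011 for the 62 genes and 840 for all tested genes. Whether the counts bear on either share was not tested. The median log2 ratio was -0.01 over the 62 genes and 0.02 over all tested genes, and the median size of the ratio without its sign was 0.20 and 0.14. Log2 ratios within 0.25 of 0 were found for 41 of the 62, or 66.1%, and for 70.9% of all tested genes. Of the 62, 31 lay above 0 and 31 below, and 55.1% of all tested genes lay above 0.

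**Figure D1:**
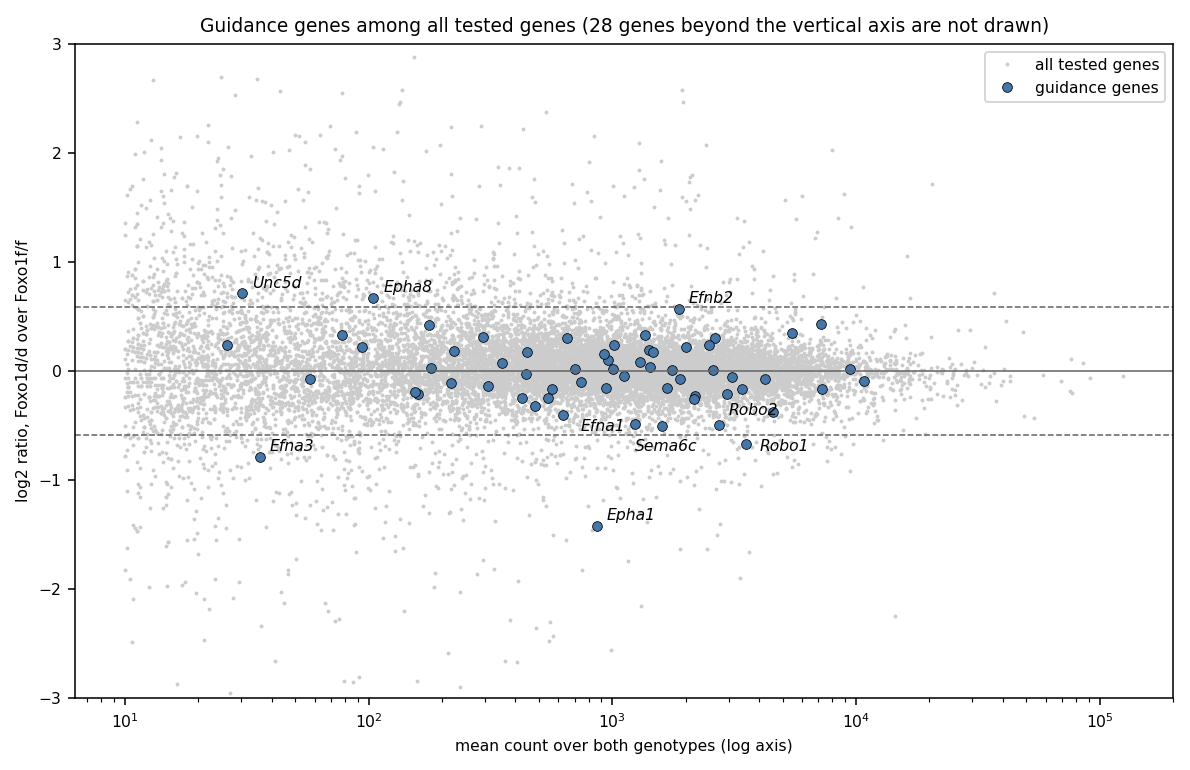
Log2 ratio between the genotypes, positive where *Foxo1d/d* is higher (vertical axis) against the mean count over both genotypes (horizontal log axis) for all 15696 tested genes in grey and 62 guidance genes in blue, with dashed lines at 1.5-fold. The guidance genes past the lines are *Epha8* and *Unc5d* above and *Epha1*, *Efna3* and *Robo1* below, and *Efnb2* lies just inside the upper line.

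Levels between genes were compared as CPM (mean counts scaled to a total of 1000000) per kilobase of exon. On that scale and in *Foxo1f/f*, the order began with *Plxnb2* (54.0), a semaphorin receptor, *Nrp1* (50.01), a coreceptor of class 3 semaphorins and VEGF, and *Plxnd1* (41.6), a plexin of blood vessels. *Sema5a* (38.5), a membrane semaphorin, *Ephb4* (37.2), a venous Eph receptor, and *Sema3c* (35.3), a secreted semaphorin, came next. *Efna1* (29.5), an ephrin held by a lipid anchor, *Plxnb1* (26.4), the SEMA4D receptor, and *Sema4a* (25.6) and *Sema4c* (22.6), membrane semaphorins, completed the 10 highest. The order in *Foxo1d/d* was led by *Nrp1* at 63.7, ahead of *Plxnb2* at 54.7. At the low end were genes with few counts, among them the 7 under the minimum. *Robo3* (mean counts 8.33 and 9.67), *Slit1* (12.3 and 5.33), *Ntn5* (3.67 and 5) and *Unc5a* (3.67 and 4) had a few counts in each genotype. *Epha5* (1 and 1.67), *Epha6* (0 and 1) and *Epha10* (0.33 and 0) had hardly any, and no fold is given here for these 7 genes.

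**Figure D2:**
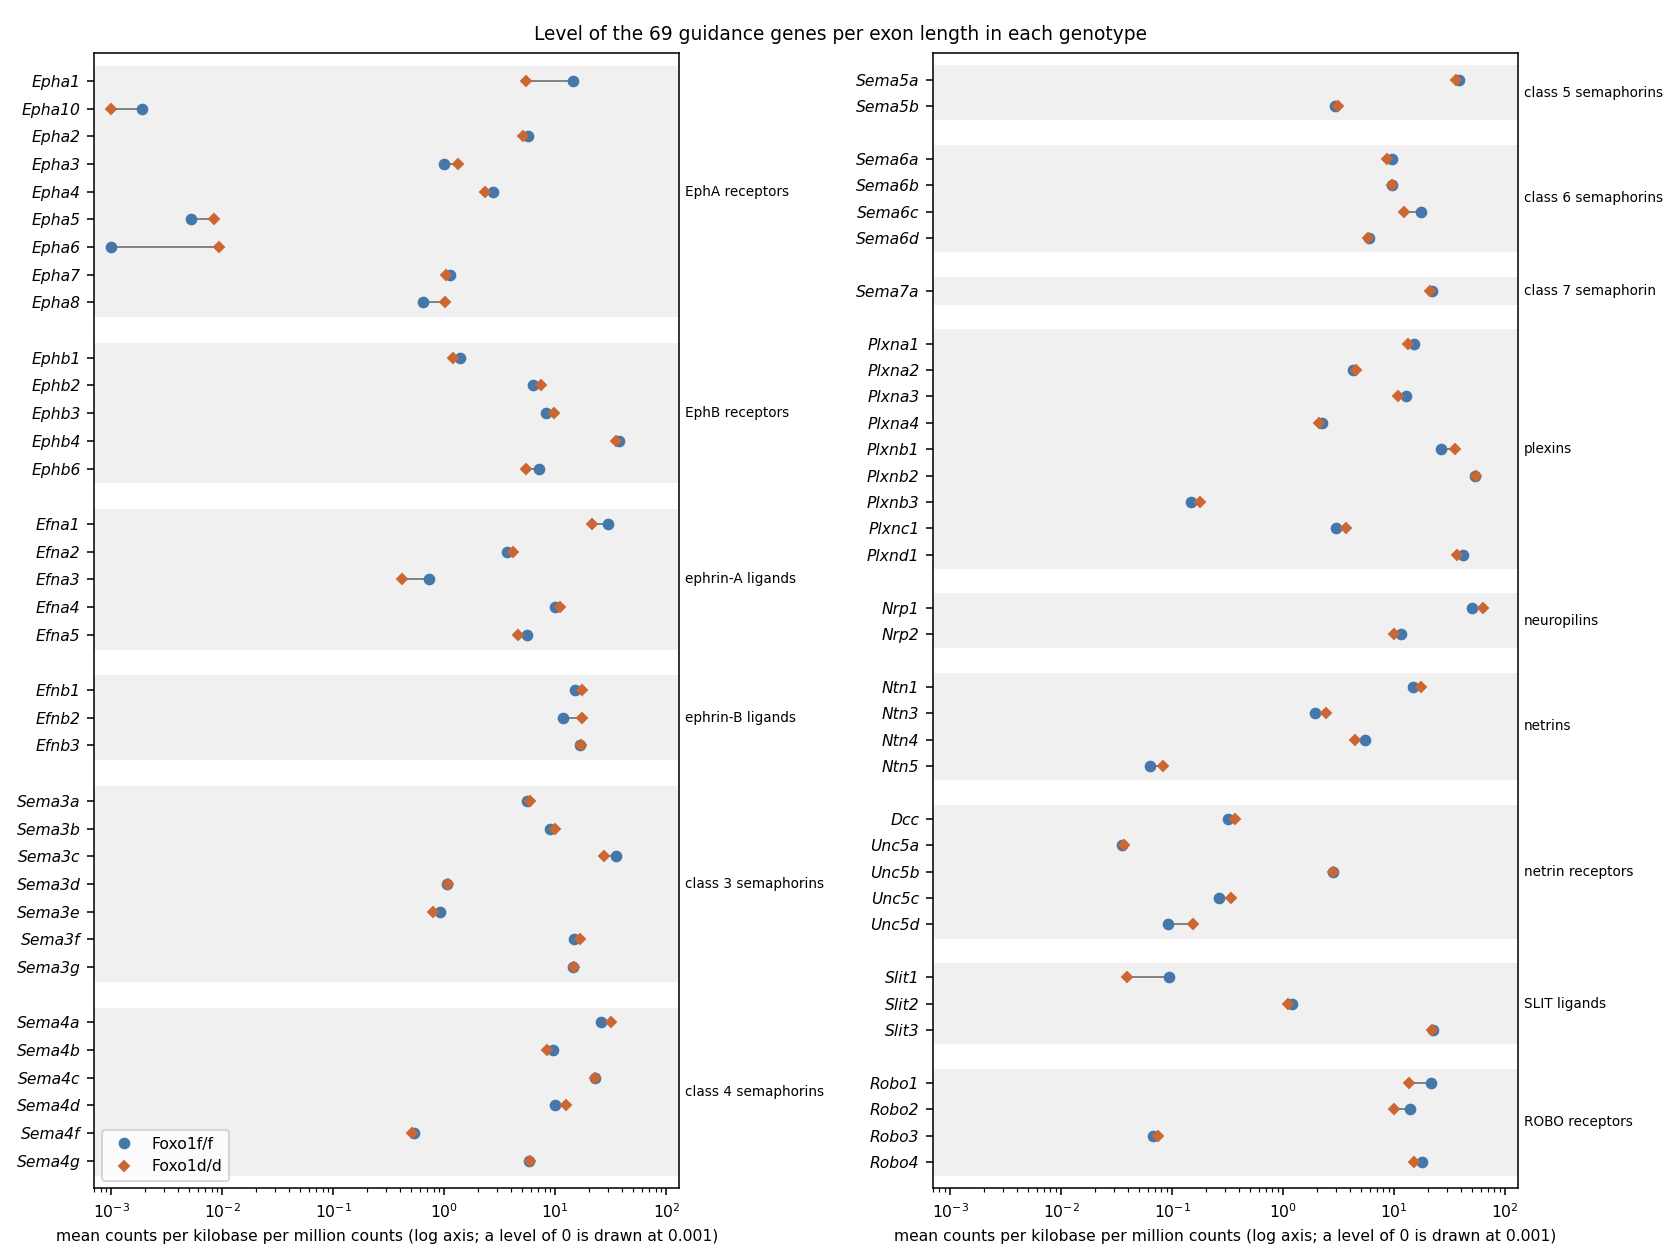
Level of all 69 guidance genes in CPM per kilobase of exon (horizontal log axis), with circles for *Foxo1f/f* and diamonds for *Foxo1d/d*, grouped by family. Most pairs of symbols lie close together, and *Epha1* has the widest gap among the genes with a level above 1 in both genotypes.

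Among the EphA receptors, 1 gene stood apart. *Epha1*, an Eph receptor known from epithelia, averaged 1242 counts in *Foxo1f/f* against 484 in *Foxo1d/d* (log2 ratio -1.42, interval -1.51 to -1.33), a level 2.67-fold lower in *Foxo1d/d*. From the lowest ratio upward it stood at place 107 of the 15696 tested genes, where *Foxo1* stood at place 96. Per length, *Epha1* held 56.5% of the summed level of the EphA receptors in *Foxo1f/f* against 33.4% in *Foxo1d/d*, and in *Foxo1d/d* its level was close to that of *Epha2*. *Epha2*, another epithelial and vascular receptor, held 22.1% and 31.4%, with mean counts of 582 and 543 (log2 ratio -0.16). An exon of *Zyx*, on the other strand, overlaps 7.21% of the *Epha1* exon length. The *Zyx* mean counts were 7660 and 6883, and how reads in the overlap were assigned was not tested.

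*Epha8*, an Eph receptor known from the developing midbrain, lay on the other side. It averaged 78.3 and 131 counts (log2 ratio 0.67, interval 0.44 to 0.92). The lower end of that interval is inside 1.5-fold. *Epha3*, a receptor of mesenchyme, averaged 147 and 206 (log2 ratio 0.42, interval 0.25 to 0.61). *Epha4* (454 and 399, log2 ratio -0.25) and *Epha7* (221 and 214, log2 ratio -0.11) were lower in *Foxo1d/d*, and the *Epha7* interval included 0. The EphA family thus held ratios from -1.42 to 0.67, with a median of -0.13 over its 6 tested genes, while its summed level per length was 25.7 in *Foxo1f/f* against 16.2 in *Foxo1d/d*.

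The EphB receptors stayed closer to 0. *Ephb4*, the receptor of veins, took 61.7% of the family's level per length in *Foxo1f/f* against 59.8% in *Foxo1d/d*, and its mean counts were 4250 and 4215 (log2 ratio -0.07). *Ephb2* (1805 and 2202, log2 ratio 0.23) and *Ephb3* (907 and 1118, log2 ratio 0.24), kinases that sort epithelial cells in the gut, were higher in *Foxo1d/d*. *Ephb6*, which lacks kinase activity, was lower (702 and 554, log2 ratio -0.40), as was *Ephb1* (167 and 151, log2 ratio -0.21). The median over the 5 genes was -0.07.

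Of the ephrin-A ligands, which bind EphA receptors, 3 of 5 were lower. *Efna1* averaged 1412 and 1056 counts (log2 ratio -0.48, interval -0.55 to -0.41), and with 60.0% of the ephrin-A level per length in *Foxo1f/f* it was the most abundant ephrin-A. *Efna3* had few counts, 44.7 and 26.7, and a log2 ratio of -0.78 (interval -1.22 to -0.40, which reaches inside 1.5-fold). Antisense transcripts overlap 14.6% of its exon length. *Efna5* (579 and 510, log2 ratio -0.24) was lower too, and *Efna2* (205 and 243, log2 ratio 0.19) and *Efna4* (410 and 484, log2 ratio 0.18) were higher. *Efna1*, *Efna3* and *Efna4* lie side by side on chromosome 3, with 10454 bases between *Efna3* and *Efna4* and 32948 between *Efna1* and *Efna3*. The neighbours did not share a direction, since *Efna4* was higher and the other two were lower.

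The ephrin-B ligands, which span the membrane and bind EphB receptors, were all on the higher side. *Efnb2*, the ephrin of arteries and lymphatic valves, averaged 1469 and 2271 counts (log2 ratio 0.57, interval 0.51 to 0.62), the gene nearest to 1.5-fold (0.58 on the log2 scale) from inside. Its receptor gene *Ephb4* was nearly level. *Efnb1* (1290 and 1537, log2 ratio 0.19) and *Efnb3* (1381 and 1481, log2 ratio 0.04) differed less, and the *Efnb3* interval included 0. Per length the 3 ligands summed to 43.5 in *Foxo1f/f* against 51.8 in *Foxo1d/d*.

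**Figure D3:**
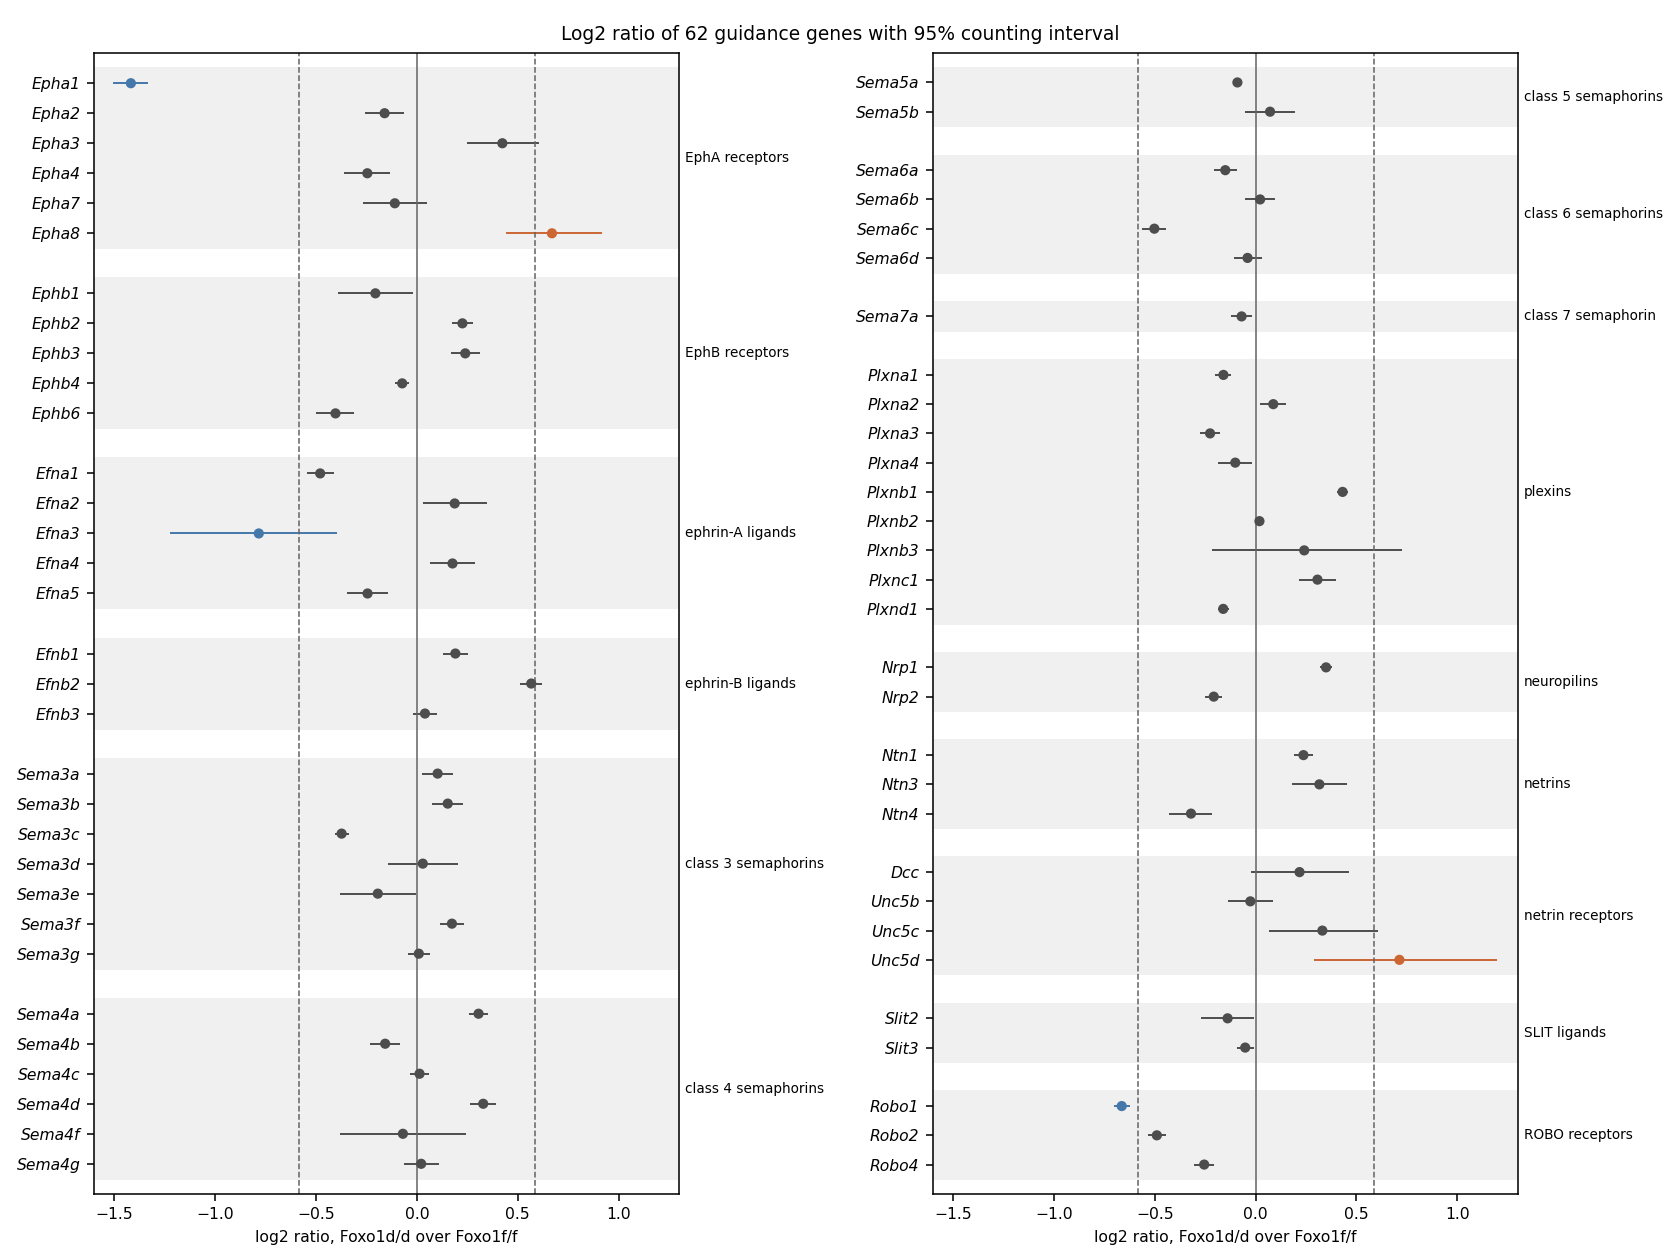
Log2 ratio between the genotypes, positive where *Foxo1d/d* is higher (horizontal axis) of the 62 tested guidance genes, with bars for the 95% counting interval and dashed lines at 1.5-fold, grouped by family. Orange marks genes over 1.5-fold higher, blue genes over 1.5-fold lower, and the 3 tested ROBO receptors all lie below 0.

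Class 3 semaphorins are secreted and bind neuropilins. *Sema3c*, which guides vessels and neural crest cells, was the most abundant of them and averaged 5060 and 4075 counts (log2 ratio -0.37, interval -0.41 to -0.34). Its share of the class per length was 43.6% in *Foxo1f/f* against 35.7% in *Foxo1d/d*. *Sema3f* (1349 and 1588, log2 ratio 0.17), which binds NRP2, *Sema3b* (857 and 995, log2 ratio 0.15) and *Sema3a* (902 and 1011, log2 ratio 0.10), which binds NRP1, were higher. *Sema3e* (162 and 148, log2 ratio -0.19), the ligand of plexin D1, was lower. *Sema3d* (174 and 186) and *Sema3g* (1718 and 1805) had intervals that included 0. *Sema3b* and *Sema3f* are neighbours on chromosome 9, with 72258 bases between them, and their ratios were alike.

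Class 4 semaphorins span the membrane, and several act in immune cells. *Sema4d*, the ligand of plexin B1 and of CD72, averaged 1175 and 1540 (log2 ratio 0.33, interval 0.27 to 0.39). *Sema4a*, which acts on T cells and vessels, had 2297 and 2962 (log2 ratio 0.31, interval 0.26 to 0.35). *Sema4b* (975 and 912, log2 ratio -0.16) was lower. *Sema4c* (2515 and 2648), *Sema4f* (57.3 and 57.0) and *Sema4g* (685 and 726) had intervals that included 0. The class median was 0.02, as over all tested genes.

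In the other classes, which also sit in the membrane, 1 gene stood apart. *Sema6c* averaged 1835 and 1351 counts (log2 ratio -0.50, interval -0.56 to -0.44), the lower gene nearest to 1.5-fold from inside. *Sema6a* (1729 and 1625, log2 ratio -0.15) was lower, and *Sema6b* (981 and 1039) and *Sema6d* (1113 and 1129) had intervals that included 0. *Sema5a*, with the most raw counts of all 69 genes, had 10878 and 10659 (log2 ratio -0.09), and *Sema5b* had 335 and 367. *Sema7a*, which is lipid-anchored and binds integrins, had 1903 and 1891 (log2 ratio -0.07).

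Plexins carry the semaphorin signal into the cell. *Plxnb1* averaged 5959 and 8384 counts (log2 ratio 0.43, interval 0.40 to 0.46), and its ligand gene *Sema4d* was higher as well. *Plxnc1*, the receptor of SEMA7A, had 567 and 732 (log2 ratio 0.31), while *Sema7a* was nearly level. *Plxnd1* (7501 and 6999, log2 ratio -0.16), *Plxna3* (2301 and 2053, log2 ratio -0.23), *Plxna1* (3531 and 3298, log2 ratio -0.16) and *Plxna4* (756 and 735, log2 ratio -0.10) were lower. *Plxna2* (1232 and 1365, log2 ratio 0.09) was higher, and *Plxnb2* (9169 and 9691) and *Plxnb3* (23.3 and 29.0) had intervals that included 0. The median of the 9 plexins was 0.02, as over all tested genes.

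The neuropilins went apart. *Nrp1* averaged 4699 and 6246 (log2 ratio 0.35, interval 0.32 to 0.38), and *Nrp2*, which serves SEMA3F and lymphatic vessels, had 3096 and 2797 (log2 ratio -0.21, interval -0.25 to -0.17). Per length, *Nrp1* held 81.4% of the neuropilin level in *Foxo1f/f* against 86.6% in *Foxo1d/d*.

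Among the netrins, which are laminin-related and secreted, *Ntn1* (2236 and 2750, log2 ratio 0.24, interval 0.19 to 0.28) and *Ntn3* (257 and 334, log2 ratio 0.32) were higher, and *Ntn4*, a netrin of basement membranes, was lower (523 and 437, log2 ratio -0.32, interval -0.43 to -0.21). Of the DCC and UNC5 receptors, all but *Unc5b* had fewer counts than these netrins. *Unc5d*, a repulsive receptor that also binds FLRT2, had 22.0 and 38.3, a log2 ratio of 0.71 (interval 0.29 to 1.20), and the interval reached well inside 1.5-fold. *Unc5b*, the vascular receptor, held 80.1% of the family's level per length in *Foxo1f/f* and averaged 435 and 446, with an interval that included 0. *Unc5c* (67.3 and 88.7, log2 ratio 0.33) was higher, and *Dcc*, the attractive receptor, had 85.0 and 103 with an interval that included 0. The higher ratios among these receptors rested on genes with few counts.

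The 3 tested ROBO receptors had ratios below 0, and 1 of them was past 1.5-fold. *Robo1*, a SLIT receptor of migrating cells and vessels, averaged 4248 and 2796 counts (log2 ratio -0.66, interval -0.70 to -0.62), with the whole interval past 1.5-fold. *Robo2*, its neighbour on chromosome 16 at 844485 bases, had 3132 and 2326 (log2 ratio -0.49, interval -0.54 to -0.45). *Robo4*, the ROBO of endothelium, had 2313 and 2022 (log2 ratio -0.26, interval -0.31 to -0.21). The median of the 3 was -0.49, and *Robo3*, under the minimum, was not tested. The summed level per length of the family was 53.4 in *Foxo1f/f* against 38.6 in *Foxo1d/d*. The tested ligands were nearer to 0, and *Slit1*, under the minimum, was not tested. *Slit3*, the main SLIT at 94.5% of the level per length in *Foxo1f/f*, averaged 3075 and 3095 (log2 ratio -0.05), and *Slit2* had 316 and 299 (log2 ratio -0.14).

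Promoter windows of 300 bases around the start site were listed by RefSeq (GRCm38.p6) for 59 of the guidance genes. They are shown for the genes past 1.5-fold that have a window, to let the letters be read beside the ratios. Each window was searched on both strands for GTAAACA, the FOXO binding element, for its core TAAACA, for AGAACA, a hexamer of steroid receptor elements, and for the GC box GGGCGG, and the last 3 are in capitals where present. The core lies within the FOXO element. *Unc5d* is named without a sequence.
Epha1, chr6:42373219-42373518, minus strand: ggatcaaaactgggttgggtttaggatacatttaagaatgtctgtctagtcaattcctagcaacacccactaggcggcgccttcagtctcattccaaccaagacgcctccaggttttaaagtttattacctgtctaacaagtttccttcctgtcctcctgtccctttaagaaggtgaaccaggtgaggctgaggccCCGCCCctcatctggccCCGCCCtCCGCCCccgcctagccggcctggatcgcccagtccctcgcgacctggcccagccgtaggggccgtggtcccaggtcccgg
Efna3, chr3:89322890-89323189, minus strand: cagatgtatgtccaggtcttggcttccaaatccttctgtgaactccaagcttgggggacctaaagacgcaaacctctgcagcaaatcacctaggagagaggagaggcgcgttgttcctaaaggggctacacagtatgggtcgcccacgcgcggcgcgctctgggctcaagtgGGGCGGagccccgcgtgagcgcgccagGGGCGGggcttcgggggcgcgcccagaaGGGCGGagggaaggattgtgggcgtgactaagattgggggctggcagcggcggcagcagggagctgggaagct
Robo1, chr16:72662899-72663198, plus strand: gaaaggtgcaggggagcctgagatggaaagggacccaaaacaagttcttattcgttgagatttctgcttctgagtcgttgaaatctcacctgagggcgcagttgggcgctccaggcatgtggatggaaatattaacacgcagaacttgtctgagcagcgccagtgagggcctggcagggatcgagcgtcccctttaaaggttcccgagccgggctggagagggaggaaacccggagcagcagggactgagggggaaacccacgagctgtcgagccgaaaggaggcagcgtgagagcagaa
Epha8, chr4:136956767-136957066, minus strand: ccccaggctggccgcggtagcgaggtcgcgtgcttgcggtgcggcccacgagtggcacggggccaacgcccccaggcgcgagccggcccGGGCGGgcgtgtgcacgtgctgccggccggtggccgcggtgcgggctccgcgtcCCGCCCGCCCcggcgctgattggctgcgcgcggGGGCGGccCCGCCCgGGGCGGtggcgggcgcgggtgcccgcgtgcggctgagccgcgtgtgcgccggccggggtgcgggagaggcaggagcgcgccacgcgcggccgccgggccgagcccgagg
None of the 75 windows of the guidance genes held GTAAACA, which 3.65% of all 32851 windows did, and 2 windows, of *Epha6* and *Sema4d*, held TAAACA, against 13.4% of all windows. These 2 windows belong to inner start sites, 5380 bases inside *Epha6* and 36995 bases inside *Sema4d* from the outermost start of each gene. AGAACA stood in 10.7% of the guidance windows and 19.0% of all windows. The GC box stood in 70.7% and 35.7%. The shown windows held GC boxes or none of the motifs: *Epha1* had 3 GC boxes, the shown *Efna3* window 3, the *Robo1* window 0, and *Epha8* 6. The *Robo1* window belongs to an inner start site, 635631 bases inside the gene from its outermost start, so it does not describe the promoter there. The *Epha8* window was 84.3% G and C, where the median window was 52.7% and the median guidance window 64.3%. These matches describe 300 bases per window, and no match says only that the letters are not in that window.

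The partner genes are coreceptors, other ligands and intracellular mediators of the same pathways. Of 29 tested coreceptors and ligands, *Lrrc4c*, which encodes a ligand of netrin-G1, was the gene over 1.5-fold higher (133 and 214, log2 ratio 0.62, interval 0.44 to 0.81), and 0 were over 1.5-fold lower, where 5.43% and 3.51% of all tested genes were. Of 52 tested mediators, *Dpysl5*, a collapsin response mediator of semaphorin signals, was over 1.5-fold lower (97.3 and 43.7, log2 ratio -1.20, interval -1.53 to -0.92), and 0 were over 1.5-fold higher, beside the same shares of all genes. The medians of these lists were -0.07 and -0.06, both close to 0.

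Values of tissue markers are given beside these genes, and their part in the results was not tested. Blood endothelial markers were lower in 9 of 9, with a median of -0.21. Their summed level was 1936 CPM in *Foxo1f/f* against 1643 in *Foxo1d/d*, and *Pecam1* was the most abundant (9743 and 8701). Smooth muscle markers were lower in 8 of 8, with a median of -0.30, summing to 7224 and 5829 CPM, with *Myh11* the most abundant (60677 and 46984). Leukocyte markers were higher in 7 of 7, with a median of 0.33, summing to 318 and 389 CPM, with *Ptprc* the most abundant (2556 and 3515).

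The epithelial markers, beside which *Epha1* stands, were higher in 8 of 10, with a median of 0.17. They summed to 683 and 787 CPM, with *Cdh1* the most abundant (4438 and 4981). *Krt19* was among the higher ones (757 and 1842, log2 ratio 1.22), and 2 of the 10 were lower. Whether these markers bear on the *Epha1* ratio was not tested. Stromal markers were lower in 7 of 10 with a median of -0.08, summing to 10427 and 10507 CPM, with *Col1a2* the most abundant. Lymphatic markers were lower in 4 of 4 tested, with a median of -0.29, summing to 139 and 116 CPM, with *Flt4* the most abundant (1706 and 1511), and *Ccl21a* was listed at 0 in both genotypes. Pericyte markers had a median of -0.06 (870 and 860 CPM), mesothelial markers 0.20 (205 and 188 CPM), and neuron and Schwann cell markers -0.25 (32.5 and 32.3 CPM).

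**Figure D4:**
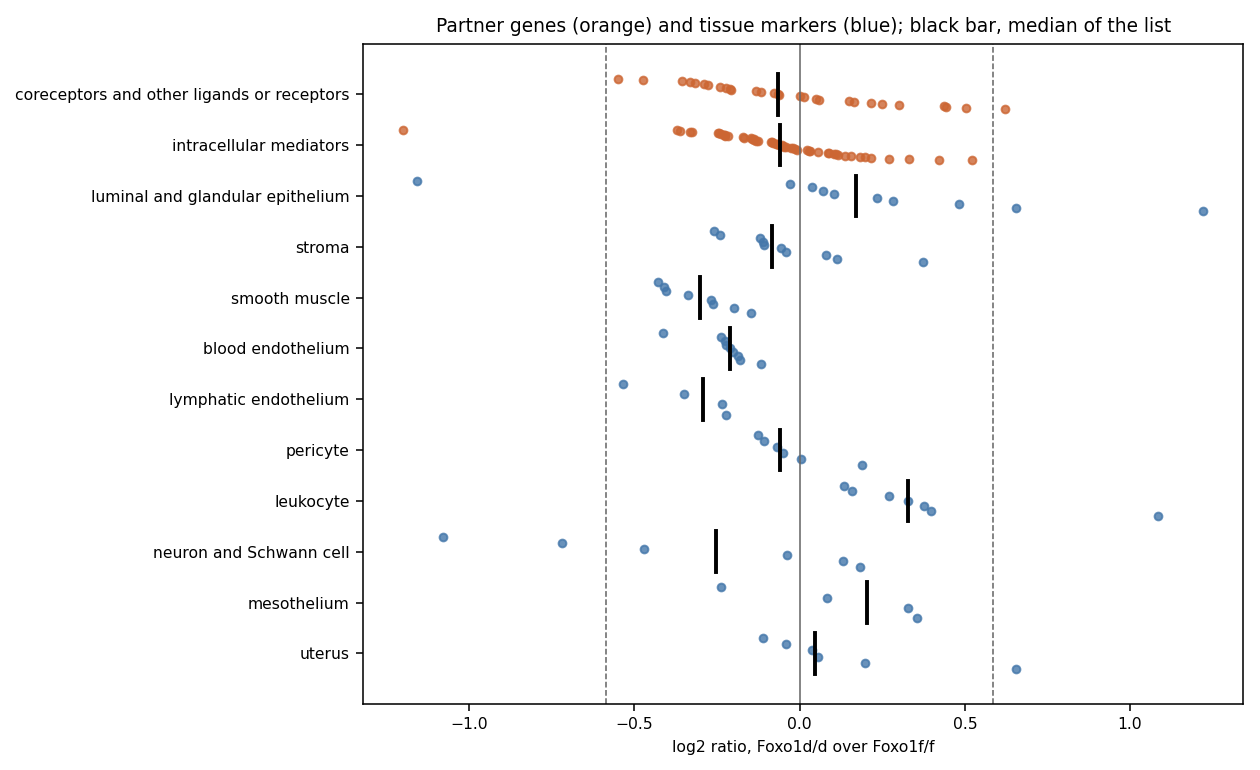
Log2 ratio between the genotypes, positive where *Foxo1d/d* is higher (horizontal axis) of the tested genes in 2 lists of partner genes (orange) and in the lists of tissue markers (blue), a point per gene, with a black bar for the median and dashed lines at 1.5-fold. All points of the smooth muscle, blood endothelial and lymphatic lists lie below 0 and all leukocyte points above 0.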

How the data were processed

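Uterine RNA of 3 libraries per genotype was prepared with a TruSeq RNA kit. The authors mapped trimmed reads with STAR, dropped duplicates using Picard and used HTSeq on RefSeq genes to count them. What the authors deposited is a genotype's mean of raw counts for every gene. The submitters' processing notes list mm9, while the study's methods name a later mouse build, so no coordinate was taken from the authors' files and positions come from RefSeq GRCm38.p6. The strand setting and versions are not given in the sources used here, and overlapping or antisense genes cannot be told apart. The authors' table also holds the edgeR fold change, average log2 CPM, p-value and FDR of the authors' own comparison, which were not used. The number of other columns of single samples left out was 0.

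Mean counts were multiplied by 3 to give summed counts. Ratios used a pseudocount of 1 and the total count of each genotype, genes with a mean count under 10 over both genotypes were left out, and folds are taken from the same ratio. Exact intervals came from scipy 1.17.1, under Python 3.11.15 with numpy 2.4.6 and pandas 2.3.3, and figures from matplotlib 3.10.9. No ratio or fold was taken for a member or listed gene where both genotypes summed to 3 counts or fewer, and no fold is given in the text for members under the minimum. Exon lengths are the union of GENCODE M21 exons of transcripts with a RefSeq match. Listed symbols missing from the table were matched by gene ID. Marker lists of different tissues share genes. A result for a single marker is not reported here, and the list totals include it.

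All members were named. Values were given for members past 1.5-fold, the 10 highest per kilobase, those nearest to 1.5-fold and their ligands or receptors, and other members were given values as well after these were seen. Members and lists were chosen with earlier results of these data known. The steps were tested on simulated counts with counting error only. Those counts held no spread between pools, so the test says nothing about that spread. Alternatives were another scaling, pseudocount, filters and thresholds.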

Additional observations from a re-analysis of the deposited data

How the results depend on the processing

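The genes past 1.5-fold were the same 2 higher and 3 lower with the median gene set to 0 (5.06% and 3.79% of all tested genes) and with a pseudocount of 0.1 (5.57% and 3.61%). With a minimum mean count of 50 there was 1 higher and 2 lower of 59, beside 3.81% and 2.58% of all tested genes. With a minimum of 1 there were 2 higher and 4 lower of 67, *Slit1* added, beside 7.52% and 5.13%. At a log2 threshold of 0.32 there were 8 higher and 8 lower of 62, beside 12.5% and 9.0%. At 2-fold there were 0 higher and 1 lower, *Epha1*, beside 1.99% and 1.40%. With the whole counting interval past 1.5-fold there were 0 higher and 2 lower, *Epha1* and *Robo1*, beside 2.91% and 2.13%. These counts follow from the thresholds themselves. The median over the guidance genes lay between -0.03 and 0.01 in all of these settings of scaling, pseudocount and filter. Setting the median gene to 0 lowers every ratio by 0.025, so values between 0 and 0.025 must change sign, and such a change says nothing about a gene or family. Family medians became 0.0045 for class 3 semaphorins, -0.0076 for class 4, -0.034 for class 5 and -0.0059 for plexins, of which class 4 and plexins changed sign. The sign of 5 single genes with ratios near 0 changed there, *Sema3g*, *Sema4c*, *Sema4g*, *Sema6b* and *Plxnb2*. In that setting 26 of the 62 genes lay above 0 and 36 below, where the main setting had 31 and 31. The partner genes were planned, and the alternatives for them were added after seeing the data. Of 81 tested, 1 was higher and 1 lower past 1.5-fold in the main setting, with the median gene at 0 and with a pseudocount of 0.1, as with a minimum of 50 (80 tested) and of 1 (82 tested). Of the 81 there were 7 higher and 9 lower at a log2 threshold of 0.32, 0 higher and 1 lower at 2-fold, and 0 higher and 1 lower with the whole interval past 1.5-fold. The shares of all tested genes in each setting are those given above, and in the main setting they were 5.43% and 3.51%.

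No paired analysis was possible because the table gives 1 mean count per genotype. For the same reason the alternatives without each replicate and with a replicate block were not run, and the spread between pools, which these mean counts do not show, limits every ratio. Low counts limit *Unc5d*, *Efna3* and *Epha8*, whose intervals include 1.5-fold.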
